A study of Drosophila melanogaster with 13 samples.

Results

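Heads of adult Drosophila melanogaster that carried a mutation in egg were set directly against heads that carried a mutation in Su(var)3-9, without the control arrays. The comparison took the 3 arrays titled as egg and the 3 titled as Su(var)3-9, which are 6 of 13 arrays in the series and of the 12 that hold values. The egg mutant was yw; egg235/CyO, so its mutation was heterozygous over the balancer chromosome CyO. The Su(var)3-9 mutant was yw; +/CyO; Su(var)3-906, and the labels do not state whether the chromosome with Su(var)3-906 was homozygous. Both genotypes share the yw background and CyO. The series also holds the double mutant yw; egg235/CyO; Su(var)3-906 and the control yw; +/CyO, whose levels are given below only beside those of the single mutants. Flies were reared at 25 °C and 70% humidity, RNA was extracted with Trizol, and sex, age and the number of heads per sample were not given. Per the labels the 3 arrays of a genotype are biological replicates.

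Both genes encode enzymes that methylate lysine 9 of histone H3 (H3K9), the mark that HP1 proteins read in heterochromatin. Su(var)3-9, the fly homolog of the SUV39H enzymes, is known for its action at pericentric heterochromatin, and its mutations were first found as suppressors of position-effect variegation. The product of egg, eggless, is the fly homolog of SETDB1, is needed in the ovary and acts on chromosome 4, a small and largely heterochromatic chromosome that the product of Pof also binds. The comparison asks where transcript levels in the head differ between flies with the one mutation and flies with the other.

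The values are log2 expression per probe set, a group of short probes that measures a transcript, so a difference of 1 is 2-fold. All differences below are egg minus Su(var)3-9 and were tested with limma over all probe sets, with calls at a Benjamini-Hochberg adjusted p under 0.05. A gene was represented by its brightest probe set. No probe set was annotated to egg or Su(var)3-9 alone, so the mutated genes did not check the labels. Correlations of all values were 0.996 to 0.9978 between egg arrays and 0.9922 to 0.995 between Su(var)3-9 arrays. Su(var)3-9 replicate 3 stood apart. It correlated with the egg arrays at 0.9797 to 0.9812, whereas Su(var)3-9 replicates 1 and 2 did so at 0.9666 to 0.9721.

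Photoreceptor genes had median log2 levels of 10.98 to 11.09 on egg arrays and 10.54 to 10.63 on Su(var)3-9 arrays. Neuronal genes had 10.45 to 10.50 on egg arrays and 10.29 to 10.30 on Su(var)3-9 arrays, so these markers of the head were bright in both mutants. Transcripts of organs outside the head also differed between the mutants. The list of 29 testis genes had median log2 levels of 5.75 to 6.06 on egg arrays, 4.49 to 5.13 on Su(var)3-9 arrays, 4.74 to 5.68 in the double mutant and 8.19 to 9.08 in the control. The 20 genes of the male accessory gland and ejaculatory duct and bulb had medians of 8.95 to 9.38 on egg arrays, 4.33 to 6.58 on Su(var)3-9 arrays, 5.75 to 7.65 in the double mutant and 11.08 to 11.53 in the control. For both lists every egg array lay above every Su(var)3-9 array. The 37 gut genes had medians of 6.46 to 7.29 on egg arrays and 5.01 to 6.69 on Su(var)3-9 arrays, against 4.91 to 5.75 in the double mutant and 10.04 to 10.69 in the control. Here the groups overlapped, because Su(var)3-9 replicate 3 reached into the egg range. In whole-tissue RNA, fewer cells of a type and less RNA per cell cannot be told apart. The part of these organ transcripts in any other result was not tested.

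**Figure D1:**
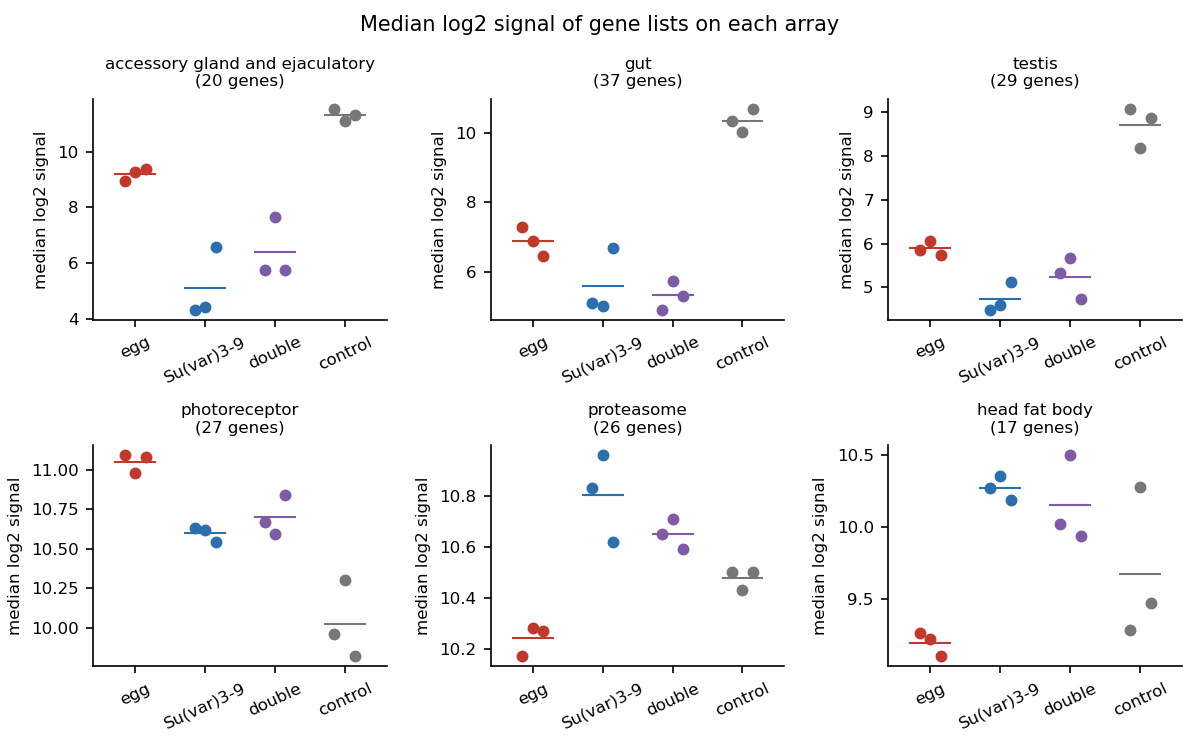
Median log2 signal of 6 gene lists (vertical axis) on each array of the egg mutant, the Su(var)3-9 mutant, the double mutant and the control, with points for arrays and a line for the mean of each group. Egg arrays lie above Su(var)3-9 arrays for accessory gland, testis and photoreceptor genes and below them for proteasome and fat body genes, and Su(var)3-9 replicate 3 is the highest of its group for the accessory gland, testis and gut lists.

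The genotypes differed widely. Of 18769 probe sets 5599 were called (29.8%), with 2830 higher in egg (15.1%) and 2769 lower (14.8%). Among 11981 genes, 2343 were higher in egg (19.6%) and 1791 were lower (14.9%). Differences of at least 2-fold were less even, with 697 genes in all (5.82%), 476 higher in egg (3.97%) and 221 lower (1.84%). The median difference over all genes was 0.005. Without egg replicate 3 the number of probe sets called was 3728, of which 1741 were lower in egg, and without egg replicate 2 the number lower was 1825. Centring each array on its median shifted the median of all probe sets to -0.20, against -0.06 as deposited, and gave 1778 probe sets higher and 7112 lower. The share of calls that were higher in egg was then 20.0%, against 50.5% as deposited, so small differences are best read relative to that shift.

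The 12 genes with the largest excess in egg heads were mostly of the male reproductive tract and the gut. Ebp, a protein of the ejaculatory bulb, had log2 levels of 11.32, 11.61 and 11.60 on egg arrays, against 4.14, 4.29 and 8.07 on Su(var)3-9 arrays. The 12 were chosen without overlap between the groups, and for Ebp Su(var)3-9 replicate 3 was the nearest to egg. The difference was 6.01 ± 0.93 (SE; limma adjusted p = 0.0026), and it was 5.94 ± 0.69 for the related EbpII (limma adjusted p = 6.26e-04). The seminal fluid proteins Acp53C14b, Acp98AB, Acp53Ea and Acp36DE were higher by 5.19, 5.02, 4.89 and 4.73. Digestive proteases were represented by Jon65Aiv (5.20), yip7 (5.09) and Jon65Aiii (4.80). Jon65Aiv measured 12.09, 11.49 and 11.17 on egg arrays, against 5.51, 4.82 and 8.83 on Su(var)3-9 arrays, again with replicate 3 the highest of its group. CG12374, CG18628 and BG642312 completed the 12, at 4.91, 4.87 and 4.87. For BG642312 the Su(var)3-9 arrays lay closer together, at 3.89, 3.51 and 4.71, against 8.79, 8.88 and 9.04 in egg.

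Counted over whole lists, 17 of 20 accessory gland and ejaculatory genes were higher in egg and 0 were lower (limma; at an unadjusted p under 0.05 also 17 higher, and 1 lower). The shares higher were 85% there, 86.2% for the testis list and 59.5% for the gut list, beside 19.6% of all genes. Of 29 testis genes 25 were higher and 1, can, was lower (-0.23). The largest testis difference was that of ocn, 4.24, with 8.63, 8.67 and 8.74 on egg arrays, against 3.61, 4.21 and 5.51 on Su(var)3-9 arrays. Of 37 gut genes 22 were higher and 1, LManIV, was lower (-0.39). That gut count depended on single arrays: it was 31 without Su(var)3-9 replicate 3, 12 without egg replicate 1, 13 without egg replicate 2 and 14 without Su(var)3-9 replicate 2. The calls of can and LManIV were each lost under several alternatives. Ovary and eggshell genes, 24 in all, had 2 higher, Cp15 and Cks30A (2.63), and 1 lower, bcd (-2.51), whose other probe set did not differ by a call. The shares of this list were 8.33% higher and 4.17% lower, beside 19.6% and 14.9% of all genes. The eggshell gene Cp15 read 11.44, 6.01 and 8.10 on egg arrays, against 4.38, 4.89 and 4.44 on Su(var)3-9 arrays, so the egg arrays were widely scattered around the difference of 3.95. Without egg replicate 1 the difference was 2.49, still called, and the call was lost without egg replicate 3 and without any 1 Su(var)3-9 array.

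Of 21 muscle genes 10 were lower in egg (47.6%, beside 14.9% of all genes) and 4 higher (19.0%, beside 19.6% of all genes). The median difference was -0.17 although the median level was higher on egg arrays (11.33 to 11.50) than on Su(var)3-9 arrays (10.87 to 11.02). The actin gene Act87E was lower by 0.81 in egg heads, while Act79B was higher by 1.10, a call lost without egg replicate 2 or 3. Act79B averaged 10.48 ± 0.19 in the double mutant and 13.62 ± 0.20 in the control (SD, n = 3 each), so its 4 groups ranked as for the testis list. With arrays centred on their medians 1 muscle gene was higher and 11 lower. The counts were 1 higher and 5 lower without egg replicate 3, and 2 and 8 without egg replicate 2. They were 3 and 5 without egg replicate 1 and 3 and 6 without Su(var)3-9 replicate 1.

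**Figure D2:**
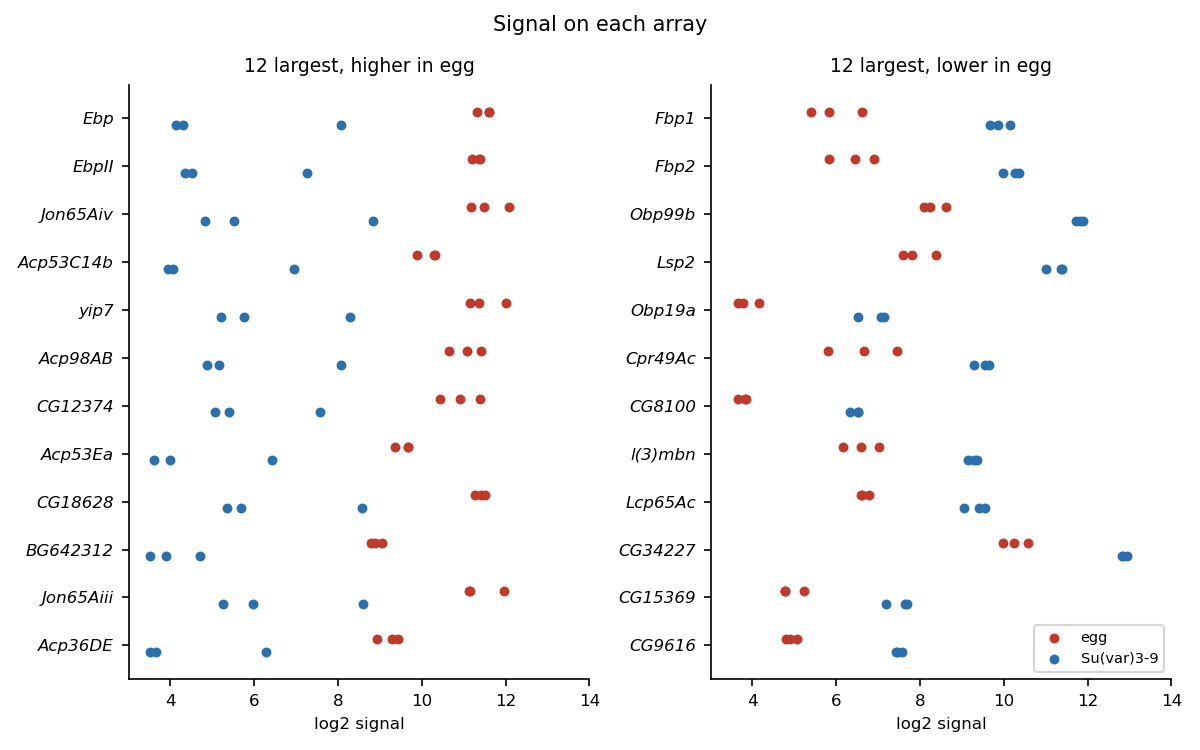
Log2 signal (horizontal axis) on each egg and each Su(var)3-9 array for the 12 genes with the largest difference in each direction. The genes were chosen to have no overlap between the groups. In the left panel Su(var)3-9 replicate 3 is the array of its group nearest to egg for all 12 genes.

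The largest differences with egg heads lower were in fat body, odorant binding and cuticle genes. Lower here is relative to Su(var)3-9 and not to the control. Fbp1, the fat body receptor for larval serum proteins, had levels of 5.40, 6.61 and 5.83 on egg arrays, against 9.86, 10.15 and 9.68 on Su(var)3-9 arrays. Fbp2, another fat body protein, had 5.83, 6.90 and 6.45 on egg arrays, against 10.27, 10.36 and 9.98 on Su(var)3-9 arrays. For the storage protein Lsp2 the values were 7.59, 8.38 and 7.80 in egg and 11.38, 11.37 and 11.01 in Su(var)3-9. In all 3 genes the groups lay far apart, and egg replicate 2 was the highest egg array. Their differences were -3.95 ± 0.28, -3.81 ± 0.25 and -3.33 ± 0.20 (SE; largest limma adjusted p = 6.34e-05). In the double mutant these genes averaged 8.97 ± 0.24, 9.97 ± 0.16 and 11.33 ± 0.05, and in the control 5.99 ± 0.23, 6.57 ± 0.61 and 9.60 ± 0.66 (SD, n = 3 each).

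Across the 17 genes listed for the head fat body, 9 were lower in egg (52.9%, beside 14.9% of all genes), with a median of -0.23. The 3 higher, Cyp4g1, Npc2e and AkhR, were 17.6%, beside 19.6% of all genes. Without egg replicate 2 only 1 was higher. The other lower members included the lipase gene bmm (-0.50), the lipid transfer gene Mtp (-0.42) and the lipid droplet genes Lsd-1 (-0.30) and Lsd-2 (-0.23). Cyp4g1, the P450 that makes cuticular hydrocarbons in oenocytes, went the other way. It read 12.65, 12.55 and 12.30 on egg arrays, against 9.00, 5.71 and 10.19 on Su(var)3-9 arrays. The Su(var)3-9 arrays were widely scattered. The difference of 4.20 was no longer called without egg replicate 2 or with trend and robust settings in limma. Cyp4g1 averaged 9.18 ± 1.54 in the double mutant and 13.83 ± 0.23 in the control (SD, n = 3 each). Oenocytes lie under the abdominal cuticle, and the part of RNA from outside the head in this difference was not tested.

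Odorant binding proteins, small secreted carriers that many tissues besides the antenna make, showed both directions, with 17 of 51 lower in egg (33.3%, beside 14.9% of all genes) and 10 higher (19.6%, the share of all genes). Obp99b measured 8.10, 8.63 and 8.23 on egg arrays, against 11.82, 11.89 and 11.72 on Su(var)3-9 arrays. The gap of 3.49 was many times the spread within either group. Obp19a was near the bottom of the scale in egg heads, at 3.65, 3.77 and 4.15, against 7.06, 7.13 and 6.51 in Su(var)3-9 heads. Its difference was -3.04, and a second, dimmer probe set of Obp19a was called in the same direction at -1.75. In the control Obp99b averaged 9.04 ± 0.07 and Obp19a 3.64 ± 0.12 (SD, n = 3 each). Obp51a was the opposite case, higher by 3.28, with 7.05, 7.09 and 6.86 on egg arrays, against 3.73, 3.65 and 3.78 on Su(var)3-9 arrays. It averaged 4.70 ± 0.52 in the double mutant and 8.99 ± 0.33 in the control (SD, n = 3 each), so the 4 groups ranked as they did for the accessory gland list.

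Cuticle protein genes were lower in egg heads in 21 of 35 cases (60%, beside 14.9% of all genes), with a median of -0.48. The 3 higher were 8.57%, beside 19.6% of all genes. The median level of the list was 6.13 to 7.23 on egg arrays, 7.96 to 8.23 on Su(var)3-9 arrays and 6.68 to 7.16 in the control. Cpr49Ac had 5.81, 7.46 and 6.67 on egg arrays, against 9.55, 9.65 and 9.30 on Su(var)3-9 arrays. The egg arrays were the more variable, with replicate 1 lowest, but none reached the Su(var)3-9 values. Lcp65Ac was lower by 2.67, Cpr64Aa by 2.20, and resilin, the gene of an elastic cuticle protein, by 1.32 on the log2 scale. Within the Cpr49A cluster on 2R the 6 measured genes split, with 2 lower and 2 higher, from -2.85 for Cpr49Ac to 1.16 for Cpr49Ab. Cpr49Ab averaged 5.62 ± 0.13 in the double mutant and 10.01 ± 0.30 in the control (SD, n = 3 each), so it was highest in the control. The other genes among the 12 largest differences in this direction were CG8100 (-2.68), l(3)mbn (-2.67), CG34227 (-2.60), CG15369 (-2.58) and CG9616 (-2.56).

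The proteasome, the complex that degrades ubiquitin-tagged proteins, was lower in egg heads almost throughout. Of 26 measured subunit genes 25 were called lower (96.2%, beside 14.9% of all genes) and 0 higher (limma; at an unadjusted p under 0.05, 26 lower and 0 higher). The median difference was -0.60, against 0.005 over all genes. In all 26 genes the egg and Su(var)3-9 arrays did not overlap, a separation seen in 52.3% of all genes. The call extended over the parts of the complex: 6 of 6 alpha subunits of the core, 5 of 6 beta subunits, 4 of 4 Rpt ATPases and 10 of 10 Rpn subunits of the lid and base. With any 1 array left out 24 to 26 genes were lower, and under every scaling tried 25 or 26 were.

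Prosalpha6 had the largest difference of the subunits, with 9.55, 9.49 and 9.62 on egg arrays, against 10.47, 10.68 and 10.39 on Su(var)3-9 arrays. Rpn11, the deubiquitinase of the lid, had 10.25, 10.46 and 10.42 in egg, against 11.15, 11.34 and 10.93 in Su(var)3-9. Both genes were separated by more than the spread of either group, at -0.97 ± 0.09 and -0.77 ± 0.11 (SE; limma adjusted p = 2.25e-04 and 0.0021). Prosbeta6, the exception, read 10.58 on each egg array, against 10.86, 11.06 and 10.65 on Su(var)3-9 arrays (limma adjusted p = 0.083). The median of the list was 10.17 to 10.28 on egg arrays and 10.62 to 10.96 on Su(var)3-9 arrays, with 10.59 to 10.71 in the double mutant and 10.43 to 10.50 in the control. The egg arrays were thus below, and the Su(var)3-9 arrays above, all control arrays. Within Su(var)3-9, replicate 3 was the lowest for this list as it was the highest for the organ lists.

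A second group that was lower in egg heads makes purines and handles one-carbon units. This list was assembled after the values of some of its genes had been seen, so its count describes a choice. Of 21 measured genes 16 were lower (76.2%, beside 14.9% of all genes) and 0 higher (limma; the same numbers at an unadjusted p under 0.05). The median difference was -1.10. Gnmt, the glycine N-methyltransferase that consumes S-adenosylmethionine, had 7.85, 7.72 and 7.71 on egg arrays, against 10.24, 10.10 and 10.51 on Su(var)3-9 arrays. Nmdmc, a methylenetetrahydrofolate dehydrogenase, had 7.89, 7.72 and 7.84 in egg, against 9.67, 9.48 and 9.77 in Su(var)3-9. The groups were tight and well apart, with differences of -2.53 ± 0.11 and -1.82 ± 0.09 (SE; limma adjusted p = 8.94e-06 and 1.72e-05).

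By step, 7 of 9 genes of purine synthesis, 4 of 5 folate genes, 3 of 5 genes of methyl transfer and both glycine genes were lower. The purine enzymes Paics, Gart, Adsl and Pfas were lower by 1.18, 1.15, 1.13 and 1.10, and Prat2, for the first step of the pathway, by 0.83 on the log2 scale. Its paralog Prat was at 6.67 ± 0.17 in egg and 6.63 ± 0.07 in Su(var)3-9 (SD, n = 3 each), with an adjusted p of 0.76. Sarcosine dehydrogenase (Sardh) was lower by 1.59, pug by 1.44, and Shmt, the serine hydroxymethyltransferase, by 1.32. The S-adenosylmethionine synthetase Sam-S differed by 0.04 and Cbs by -0.10, neither past the threshold. The list's median lay between 8.36 and 8.44 on egg arrays, against 9.48 to 9.68 on Su(var)3-9 arrays. It was 9.62 to 10.06 in the double mutant and 9.47 to 9.61 in the control, so by this median the egg arrays stood apart. Gnmt averaged 8.88 ± 0.36 in the control and 9.98 ± 0.21 in the double mutant (SD, n = 3 each). Its control level thus lay between egg and Su(var)3-9.

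Eye pigment genes shared some of these members. Of 23 measured, 9 were lower in egg (39.1%, beside 14.9% of all genes) and 1 was higher (4.35%, beside 19.6%). The higher one was lt (0.26), a call lost without any 1 egg array. Besides Nmdmc and pug, the lower ones included genes of the red pteridine pigments: se (-1.15), the transporter gene bw (-1.02), pr (-0.80) and Pu (-0.53). In the pathway of glycolysis and gluconeogenesis 4 of 13 genes were lower (30.8%, beside 14.9% of all genes) and 0 higher (limma; the same at an unadjusted p under 0.05). The 4 were Hex-C (-1.42), Pepck1 (-1.18), fbp (-1.05) and Gpdh1 (-0.57). Pepck1 and fbp are gluconeogenic.

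**Figure D3:**
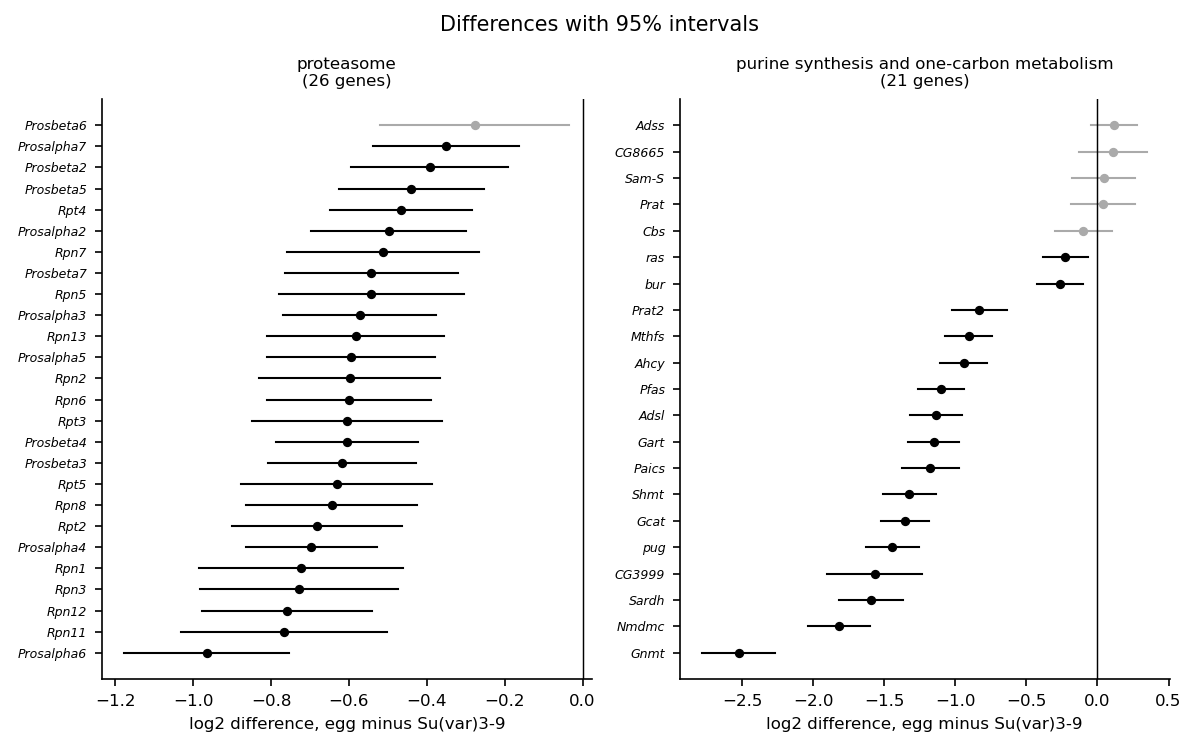
Log2 difference, egg minus Su(var)3-9 (horizontal axis), with its 95% interval for each measured gene of the proteasome (26) and of purine synthesis and one-carbon metabolism (21), black where the adjusted p is under 0.05 and grey otherwise. All proteasome points lie below 0, between -0.97 and -0.28, and 16 genes of the second list are black, down to -2.53 for Gnmt.

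Glutathione S-transferases, which conjugate glutathione to toxic compounds, were lower in egg heads in 21 of 35 cases and higher in 2, with a median of -0.31. The shares were 60% lower and 5.71% higher, beside 14.9% and 19.6% of all genes. GstE7 had 5.96, 5.75 and 5.87 on egg arrays, against 8.24, 8.11 and 8.41 on Su(var)3-9 arrays. GstE3 had 6.96, 6.87 and 7.14 in egg, against 9.36, 9.27 and 9.44 in Su(var)3-9. These 2 members of a tandem cluster on 2R had the largest differences of the family, -2.39 ± 0.10 and -2.37 ± 0.09 (SE; limma adjusted p = 6.54e-06 and 5.03e-06). The double mutant, at 6.58 ± 0.13 and 7.71 ± 0.03, lay nearer to egg, and the control, at 7.81 ± 0.11 and 9.11 ± 0.14, nearer to Su(var)3-9 (SD, n = 3 each).

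The same cluster held the 2 members called higher. GstE2 read 9.25, 9.07 and 9.09 on egg arrays, against 8.19, 8.20 and 8.21 on Su(var)3-9 arrays, and its difference was 0.93. GstE1 was higher by 0.45. Of the 13 GstE genes 9 were lower in all, of 11 GstD genes 5 were lower, and GstD2 had the largest difference of the GstD class, -1.25. Similar genes of this family can share probes, so values of close paralogs are not fully separate. Cytochrome P450 genes, another detoxification family, were lower in 27 of 84 cases (32.1%, beside 14.9% of all genes) and higher in 10 (11.9%, beside 19.6%). With arrays centred on their medians 41 were lower and 6 higher. Cyp4p1 was lower by 1.71 and Cyp6g1, known for insecticide resistance, by 1.46, while Cyp312a1 was higher by 1.40. Cyp312a1 averaged 5.79 ± 0.30 in the double mutant and 8.84 ± 0.40 in the control (SD, n = 3 each), so its 4 groups ranked as for the testis list. Without egg replicate 2 the family had 6 higher.

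Genes of phototransduction were higher in egg heads. Of 27 photoreceptor genes 20 were higher (74.1%, beside 19.6% of all genes) and 2 lower (7.41%, beside 14.9%), with a median of 0.39. Under the other scalings 16 to 19 were higher. The scaffold gene inaD had 12.45, 12.39 and 12.48 on egg arrays, against 11.76, 11.70 and 11.75 on Su(var)3-9 arrays. The rhodopsin phosphatase gene rdgC had 11.09, 11.25 and 11.20 in egg, against 10.49, 10.41 and 10.49 in Su(var)3-9. Replicates differed by much less than the groups, and both differences were 0.71 (limma adjusted p = 1.89e-04 and 2.97e-04). The channel gene trp was higher by 0.80 ± 0.06 and the eye protein kinase C gene inaC by 0.73 ± 0.07 (SE; limma adjusted p = 8.79e-05 and 2.61e-04), and the arrestin genes Arr1 and Arr2 by 0.44 and 0.27. The 2 lower members were ninaD (-1.59), a scavenger receptor for carotenoid uptake, and ort (-0.34), the histamine receptor of neurons downstream of photoreceptors, whose call was lost without egg replicate 1. The sizes were small: 5 of the 20 reached 1.5-fold. The list's median, above all Su(var)3-9 arrays on each egg array, was 10.59 to 10.84 in the double mutant and 9.82 to 10.30 in the control.

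The circadian clock is a feedback loop in which Clk and cyc activate per and tim, whose proteins then repress Clk and cyc, while vri and Pdp1 act on Clk. Of 14 clock genes 8 were higher in egg (57.1%, beside 19.6% of all genes) and 0 were lower (limma; at an unadjusted p under 0.05, 10 higher and 0 lower). With arrays centred on their medians, however, the counts were 3 and 1. The gene tim had 10.60, 10.64 and 10.63 on egg arrays, against 9.64, 9.65 and 9.68 on Su(var)3-9 arrays. For vri the values were 10.08, 10.23 and 10.02 in egg and 9.14, 9.09 and 9.22 in Su(var)3-9. For Clk they were 8.64, 8.53 and 8.59 in egg and 7.73, 7.61 and 7.59 in Su(var)3-9. These 3 genes were separated clearly, at 0.96 ± 0.06, 0.96 ± 0.08 and 0.94 ± 0.07 (SE; largest limma adjusted p = 1.21e-04). Smaller differences were called for Pdp1 (0.43), the neuropeptide gene Pdf (0.42) and per (0.34). Differences of 0.23 for cyc and 0.19 for cry did not pass the threshold. The time of day at which the heads were taken is not given in the labels, and its part in these values was not tested.

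**Figure D4:**
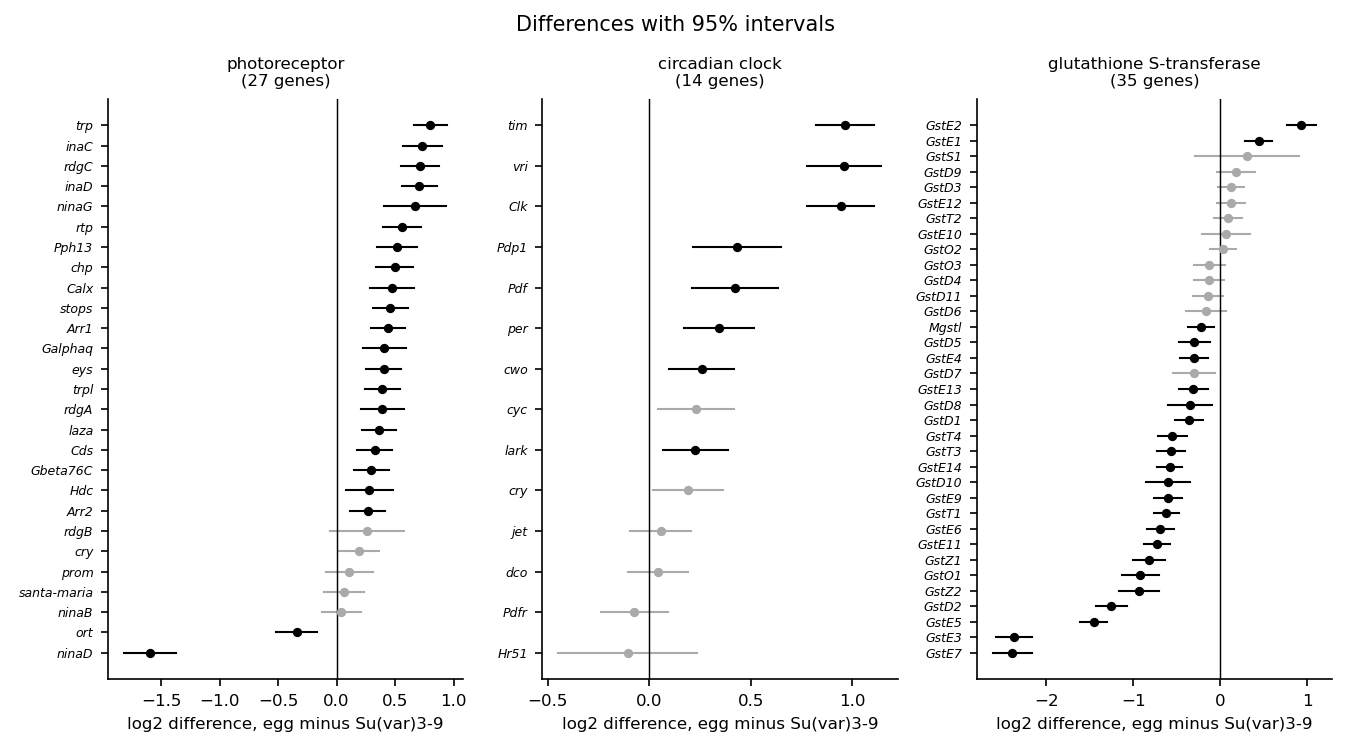
Log2 difference, egg minus Su(var)3-9 (horizontal axis), with its 95% interval for each measured gene of the photoreceptor, circadian clock and glutathione S-transferase lists, black where the adjusted p is under 0.05 and grey otherwise. Of the photoreceptor genes 20 are black above 0 and ninaD lies lowest at -1.59, tim, vri and Clk lie highest of the clock genes, and GstE7 and GstE3 lie lowest of the transferases while GstE2 and GstE1 are black above 0.

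Other nervous system lists gave mixed counts. Of 33 neuronal genes 12 were higher in egg (36.4%, beside 19.6% of all genes) and 0 lower (limma; at an unadjusted p under 0.05, 16 higher and 1 lower). The difference was 0.34 for elav and 0.48 for its relative fne. The count of 12 fell to 6 without egg replicate 1 and to 3 with arrays centred on their medians. Glia split, with 6 of 16 higher (37.5%, beside 19.6% of all genes) and 4 lower (25%, beside 14.9%). The higher were led by the GABA transporter gene Gat (0.91) and the astrocyte gene alrm (0.90). The lower were led by e (-1.77), which encodes an enzyme of amine metabolism also used in cuticle tanning. With arrays centred on their medians 5 glial genes were higher and 8 lower.

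The 18 genes of the scavenger receptor list were mixed, with 7 higher in egg (38.9%, beside 19.6% of all genes) and 4 lower (22.2%, beside 14.9%). The median difference was 0.12, and with arrays centred on their medians 4 were higher and 7 lower. The members with the largest excess were Hml, Sr-CIII and Sr-CI. Hml, the clotting factor hemolectin of hemocytes, had 9.45, 9.25 and 9.37 on egg arrays, against 6.99, 6.87 and 6.84 on Su(var)3-9 arrays. Sr-CIII had 7.01, 6.75 and 7.05 in egg, against 4.85, 4.87 and 4.75 in Su(var)3-9. Sr-CI, like Sr-CIII a class C scavenger receptor gene, had 8.20, 8.18 and 8.23 in egg, against 6.79, 6.65 and 6.61 in Su(var)3-9. The differences were 2.46 ± 0.08, 2.11 ± 0.09 and 1.52 ± 0.07 (SE; largest limma adjusted p = 1.27e-05), and Su(var)3-9 replicate 3 did not stand apart in any of them. Of other hemocyte genes, eater differed by 0.39 and NimC1 by 0.34. The 4 lower members were ninaD (-1.59), NimB5 (-0.57), NimB1 (-0.41) and emp (-0.28).

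Transcripts of the genes for H3K9 methylation and heterochromatin proteins were called higher about as often as those of all genes. Of 31 genes 6 were higher in egg and 0 lower (limma; at an unadjusted p under 0.05, 9 higher and 1 lower), which is 19.4%, beside 19.6% of all genes. With arrays centred on their medians 2 were higher and 3 lower, and without any 1 egg array 3 were higher. Pof, whose product binds chromosome 4, had the largest difference. It measured 7.85, 7.99 and 8.16 on egg arrays, against 6.79, 6.66 and 7.03 on Su(var)3-9 arrays, with a difference of 1.17 ± 0.12 (SE; limma adjusted p = 3.16e-04). The double mutant averaged 7.15 ± 0.38 and the control 10.21 ± 0.34 (SD, n = 3 each), and the 4 groups ranked as they did for the testis list. Pof is also one of the called genes nearest to egg on 2R. Su(var)205, the gene of HP1a, was higher by 0.48, and Kdm4A, a histone demethylase gene, by 0.34. Of 22 piRNA pathway genes only spn-E was called (0.45, higher), which is 4.55%, beside 34.5% of all genes. With arrays centred on their medians 1 was higher and 8 lower, and with cyclic loess 3 were higher. The piRNA genes were dim, with medians of 4.26 to 4.38 on egg arrays and 4.31 to 4.41 on Su(var)3-9 arrays. The medians of all probe sets were 5.85 to 5.91 and 5.71 to 5.77. The part of low signal in the low share called was not tested.

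On chromosome 4, 14 of 65 genes were higher in egg and 7 lower, so 32.3% were called, beside 34.5% of all genes. The balance turned to 7 higher and 13 lower with arrays centred on their medians. Without egg replicate 2 the counts were 9 and 5, and without egg replicate 3 they were 9 and 4. CG11155 had 8.86, 8.83 and 8.82 on egg arrays, against 7.64, 7.58 and 7.70 on Su(var)3-9 arrays. Rnf11 had 9.82, 9.86 and 9.81 in egg, against 11.56, 11.77 and 11.64 in Su(var)3-9. Both were far apart, at 1.20 ± 0.07 and -1.82 ± 0.07 (SE; limma adjusted p = 2.12e-05 and 6.54e-06), and a second probe set of each was called in the same direction, at 0.58 and -1.75. After CG11155 came Gat (0.91) and Mpv17 (0.83), and after Rnf11 came Kif3C (-0.72) and CG33941 (-0.52), the last not called without any 1 egg array or without Su(var)3-9 replicate 1.

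On the other chromosomes the shares called were also near that of all genes. In the pericentric windows of the large arms 48 of 186 genes were higher in egg and 18 lower, together 35.5%, and with arrays centred on their medians 18 were higher and 39 lower. Without egg replicate 1, 2 or 3 the number higher was 29, 27 or 26. By arm, 35.5% of genes were called on 2L, 34.8% on 2R, 35.0% on 3L, 36.1% on 3R and 30.4% on X. Within 2 Mb of egg 80 of 380 genes were higher and 48 lower (33.7% called). Within 2 Mb of Su(var)3-9 79 of 411 were higher and 74 lower (37.2% called).

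**Figure D5:**
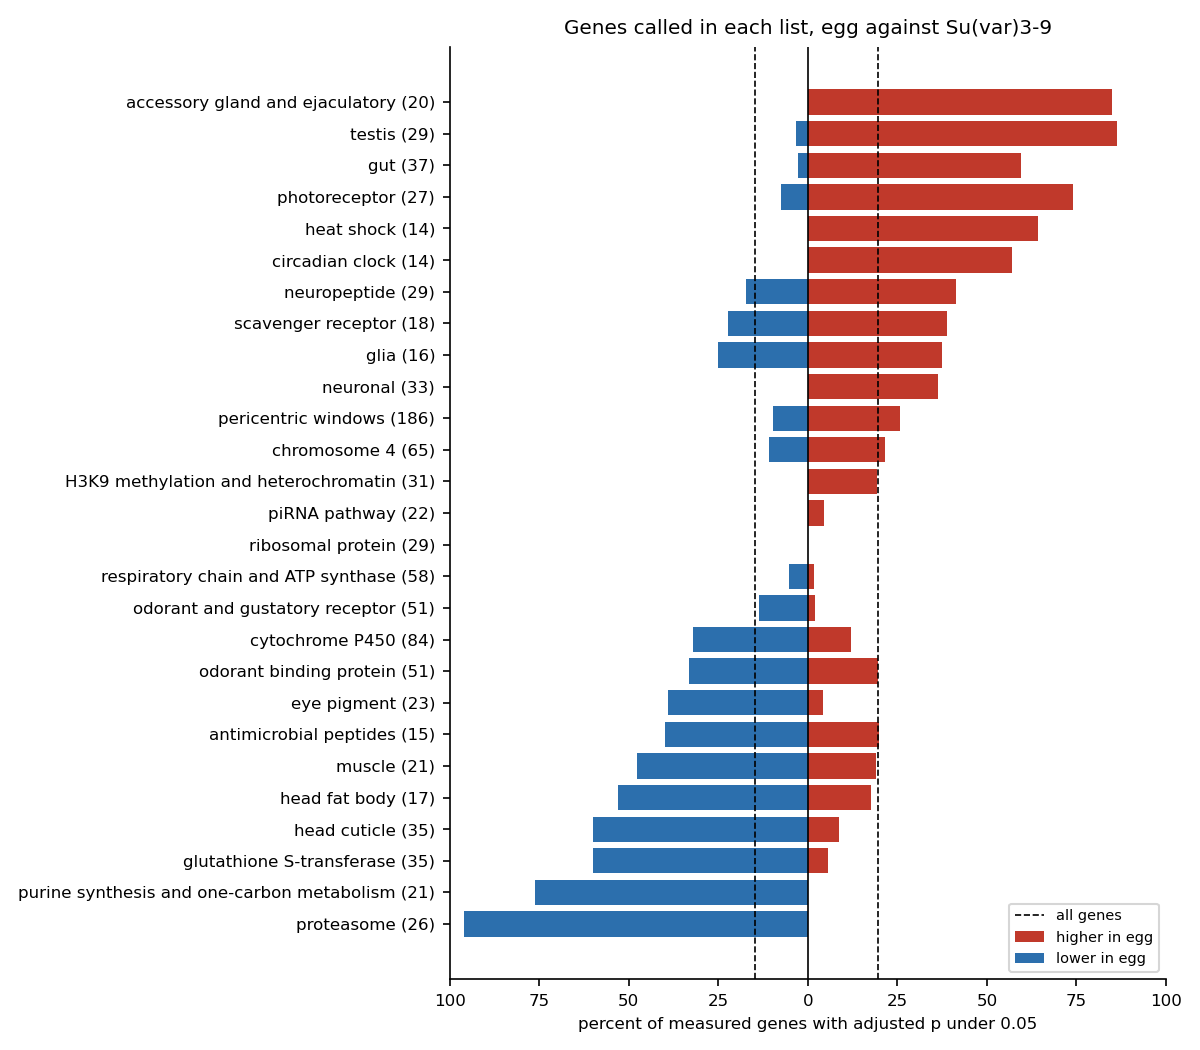
Share of measured genes in each list (number in brackets) with an adjusted p under 0.05, in percent, to the right where higher in egg and to the left where lower. Dashed lines mark the shares over all genes, 19.6% higher and 14.9% lower. The male tract, testis and photoreceptor lists extend farthest to the right, and the proteasome and purine lists farthest to the left.

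Heat shock genes were higher in egg in 9 of 14 cases (64.3%, beside 19.6% of all genes) and lower in 0 (limma; the same at an unadjusted p under 0.05). However, 5 or 6 were higher when any 1 array was left out and 3, with 1 lower, when arrays were centred on their medians. Hsc70-2 had 5.26, 5.38 and 5.40 on egg arrays, against 4.52, 4.24 and 4.13 on Su(var)3-9 arrays, all below the medians of all probe sets. It averaged 4.50 ± 0.25 in the double mutant and 7.41 ± 0.41 in the control (SD, n = 3 each). Its 4 groups thus ranked as they did for the testis list. Hsp26 was higher by 0.64. Ribosomal protein genes gave no call among 29 (limma; at an unadjusted p under 0.05, 3 higher and 0 lower), and their differences ran from -0.12 to 0.29. In the respiratory chain and ATP synthase 1 of 58 genes was higher (1.72%, beside 19.6% of all genes) and 3 lower (5.17%, beside 14.9%), between -0.36 and 0.30. With arrays centred on their medians, however, 21 were lower and 0 higher. With any 1 array left out 0 or 1 was lower.

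The largest difference of any probe set without overlap that carried no single gene name was that of 1626205_s_at. It had 6.59, 6.51 and 6.56 on egg arrays, against 12.38, 12.48 and 12.19 on Su(var)3-9 arrays, a difference of -5.80 ± 0.09 (SE; limma adjusted p = 1.30e-07). The double mutant, which carries the same Su(var)3-906 allele, averaged 6.10 ± 0.27, and the control 5.62 ± 0.12 (SD, n = 3 each). A second such probe set, 1634633_s_at, differed by -4.61, with means of 8.81 ± 0.11 in egg, 13.42 ± 0.06 in Su(var)3-9, 8.79 ± 0.04 in the double mutant and 7.89 ± 0.14 in the control (SD, n = 3 each). In both cases the Su(var)3-9 arrays were far brighter than those of all other groups. The largest in the other direction, 1623318_s_at and 1628649_at, were higher in egg by 5.78 and 4.79, and both had Su(var)3-9 replicate 3 between the groups, at 10.15 and 8.79.

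For the genes that differed by at least 2-fold, the double mutant was mostly closer to Su(var)3-9. Of the 476 genes higher in egg, the mean of the double mutant was nearer to egg in 30 and nearer to Su(var)3-9 in 446. Of the 221 genes lower in egg, it was nearer to egg in 66 and nearer to Su(var)3-9 in 155. Fbp1 and Gnmt, given above, were nearer to Su(var)3-9, and GstE7 and CG9616 were nearer to egg. CG9616 averaged 4.91 ± 0.13 in egg, 7.48 ± 0.08 in Su(var)3-9, 5.35 ± 0.06 in the double mutant and 4.31 ± 0.08 in the control (SD, n = 3 each). Among the higher genes, Sr-CIII averaged 6.93 ± 0.16 in egg, 4.82 ± 0.06 in Su(var)3-9, 6.97 ± 0.04 in the double mutant and 4.60 ± 0.17 in the control (SD, n = 3 each), so the double mutant was with egg there. These positions are descriptions and were not tested. They were not counted over all genes, so no background share stands beside them. Over all values the double mutant arrays correlated with Su(var)3-9 arrays at 0.9841 to 0.9925 and with egg arrays at 0.9787 to 0.9898. The genes higher in egg also include the male tract and gut genes named above.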

How the data were processed

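Total RNA of adult heads was hybridised to Affymetrix arrays. The authors deposited log2 values per probe set, for which RMA and limma are named per the submitters' processing notes (their versions are not given in the sources used here). There is no sequencing depth, and precision is limited by the number of arrays. Samples were matched to columns by title. The 183 Affymetrix controls among 18952 probe sets were not tested. The platform annotation gave 13646 probe sets 1 symbol, 402 several and 4721 none, and only the first kind was named. Arms came from RefSeq genes, which matched 13534 of them.

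The 6 arrays were fitted with 2 group means (limma 3.58.1, lmFit and eBayes, R 4.3.3, 4 residual and 3.662 prior degrees of freedom), two-sided, with Benjamini-Hochberg adjustment over 18769 probe sets, and the fit was tested on simulated data. Of 1094 genes with several probe sets, 201 had several called, 31 of them in both directions. Pericentric genes were those beyond 22 Mb on 2L and X and beyond 23 Mb on 3L, or below 5.4 Mb on 2R and below 4.5 Mb on 3R. Named genes, each without overlap between groups, were the 12 largest in each direction, 3 on chromosome 4 and 2 of each list per direction, 2 unnamed probe sets and the called neighbours of the mutated genes. Further members of the lists were named after their values were seen. The members and lists were chosen with earlier results of these data known. Same-numbered arrays of the 2 genotypes did not deviate together (r of -0.048, -0.049 and -0.085), so the numbers were not taken as pairs. Alternatives were a fit of all 12 arrays, a replicate block, eBayes with trend and robust settings, weighted arrays, a filter on the dimmest 40% of probe sets, 4 scalings, a stricter p, a minimum fold, averaging over probe sets per gene, other windows and leaving out each array.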

Additional observations from a re-analysis of the deposited data

How the results depend on the processing

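Of 127 named probe sets 94 were called at an adjusted p under 0.05 in each of up to 15 other fits, scalings and left-out arrays, 33 lost the call in 1 or more, and 0 reversed. As reported, 93 were past an adjusted p under 0.01 and 89 past 1.5-fold, and 82 passed all of these. The named probe sets were chosen from calls without overlap on these same arrays, mostly the largest. That choice favours keeping the call and its direction, so these counts do not describe calls in general. The number of probe sets called, 5599, was 8890 with arrays centred on their medians, 2929 at an adjusted p under 0.01, 1887 with a minimum of 1.5-fold and 3728 to 4994 with 1 array left out. The number higher in egg was 1778, 1599 and 1104 under the first 3 of these, and the number lower was 7112, 1330 and 783, with 1741 to 2581 when 1 array was left out. A minimum of 1.5-fold left 5 photoreceptor genes and 3 clock genes higher, and 12 glutathione S-transferase, 15 proteasome and 13 cuticle genes lower. Clock genes higher in egg numbered 3 with median centring and 3 at an adjusted p under 0.01. Gut genes higher in egg numbered 11 with trend and robust eBayes, 11 at an adjusted p under 0.01 and 12 to 31 with 1 array left out. The fit with the replicate number as a block called 4443 probe sets, 2284 higher and 2159 lower. Differences of dim probe sets near the lowest signals can be compressed. The cause of the lost calls was not tested.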

Other observations

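Several immune effector and neuropeptide genes differed between the mutants. The Drosomycin-like genes Drsl4 and Drsl5 had 8.76 ± 0.09 and 9.74 ± 0.02 in egg heads, against 10.66 ± 0.06 and 11.55 ± 0.08 in Su(var)3-9 heads (log2 level, SD, n = 3 each). Drs, the antifungal Drosomycin gene itself, was higher in egg by 0.49. Over 15 antimicrobial peptide genes 6 were lower (40%, beside 14.9% of all genes) and 3 higher (20%, beside 19.6%), and 1 was higher without egg replicate 1 or 3 or without Su(var)3-9 replicate 2 or 3. Without egg replicate 3 the number lower was 3. The stress genes TotC and TotB were lower in egg by 1.55 and 1.52 on the log2 scale. PGRP-SC2, an amidase that degrades peptidoglycan, was higher by 1.11. Of 19 peptidoglycan recognition and Imd pathway genes it was the only 1 called higher (5.26%, beside 19.6% of all genes). In that list 4 were lower (21.1%, beside 14.9%). PGRP-SC2 averaged 7.88 ± 0.04 in the double mutant and 9.29 ± 0.17 in the control (SD, n = 3 each). By mean, its 4 groups ranked as they did for the testis list.

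Of 29 neuropeptide genes 12 were higher in egg (41.4%, beside 19.6% of all genes) and 5 lower (17%, near the 14.9% of all genes). With arrays centred on their medians, however, 4 were higher and 9 lower. The number higher was 7 without egg replicate 1 and 6 without egg replicate 3. The eclosion hormone gene Eh had 5.69, 5.92 and 5.81 on egg arrays, against 7.44, 7.32 and 6.97 on Su(var)3-9 arrays. The insulin-like peptide gene Ilp5 had 8.41, 8.40 and 8.45 in egg, against 9.48, 9.41 and 9.27 in Su(var)3-9. Both were lower in egg by more than the spread within either group. Capa, a diuretic peptide gene, was higher in egg by 0.99 and Nplp1 by 0.66.

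A few genes, chosen after their values were seen, had tight replicates and large differences. CG31205 read 9.93, 9.96 and 9.98 on egg arrays, against 7.06, 7.08 and 6.94 on Su(var)3-9 arrays. CG9377 read 10.64, 10.54 and 10.58 in egg, against 7.80, 7.85 and 8.05 in Su(var)3-9. SPR, the receptor for the seminal sex peptide, had 9.87, 10.02 and 9.76 on egg arrays, against 7.98, 7.72 and 7.97 on Su(var)3-9 arrays. Cks30A of the ovary list, a cell cycle kinase subunit gene, averaged 8.87 ± 0.02 in egg, against 6.24 ± 0.24 in Su(var)3-9, 6.28 ± 0.17 in the double mutant and 6.22 ± 0.19 in the control (SD, n = 3 each), so egg heads alone were high.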
